A study of Homo sapiens with 12 samples.

Results

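The comparison described here sets Caco-2 spheroids exposed to methotrexate and lactoferrin together against spheroids exposed to the carrier fluid alone, across all genes counted. Its members are 6 of the 12 RNA-seq libraries of the series, 3 of the combination and 3 controls, chosen by their labels. Caco-2 is an established human colorectal adenocarcinoma line whose cells take on features of small-intestinal enterocytes. All spheroids were grown from passage 26 cells within Matrigel over 5 days, with serum from fetal calves at 20% of the medium, and then came an exposure of 4 h to the carrier, to lactoferrin, to methotrexate or to both agents. The series has 4 such groups of 3 libraries, and the doses were not used here. The 3 lactoferrin libraries entered the fit to share one estimate of the spread, which gave 9 libraries. The 3 libraries of methotrexate alone were kept out of the fit. Nothing in the sources used here says whether replicates were separate cultures, so p-values measure the spread between these libraries, which may be in part technical. As a model, the spheroids are 1 line without stromal or immune cells, and a single early time of exposure.

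Methotrexate is a folate analogue that blocks folate metabolism, and its polyglutamated forms inhibit thymidylate synthase and enzymes of purine synthesis. Cells that divide quickly, such as those of the intestinal crypt, depend on these pathways for DNA synthesis, and injury of the gut lining is a known side effect of the drug. Lactoferrin is an iron-binding glycoprotein of milk and of mucosal secretions that is taken up by intestinal cells and has been studied as a protector of the gut epithelium. In the mitogen-activated ERK pathway, which growth factor receptors switch on, Sprouty proteins and dual-specificity phosphatases are made in response to the signal and then dampen it.

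The 6 libraries held between 19644459 and 23859094 counts, and the 3 lactoferrin libraries between 18714054 and 19994882. The labelled cell type was borne out by all 14 identity markers of Caco-2 cells and enterocytes, whose levels summed to 11743 to 12453 CPM (counts scaled to a fixed library total) in controls and 11722 to 11962 in the combination. The libraries of methotrexate alone stood apart: they held 47459811 to 60591667 counts, the same identity markers summed to 4801 to 5001 CPM there, and many fibroblast and adipocyte genes that are scarce in the other groups were abundant. Identity markers were still counted there. VIL1 had 16671, 20568 and 16842 counts against 16989, 20475 and 20053 in controls, and KRT8 48039, 54998 and 54499 against 47155, 54259 and 60548. By the fibroblast and adipocyte markers the libraries labelled as methotrexate alone do not look like the Caco-2 spheroids of the other groups. Their levels are therefore given below as those of the labelled libraries, not as a response to the drug. In bulk RNA, fewer cells of a type and less RNA per cell cannot be told apart. Before any comparison, 1 source of spread within groups stood out. The first principal component of the deviations from the group means took up 59.3% of the variance within groups over 10687 genes with a mean above 5 CPM, and 7 of the 21 hypoxia and glycolysis genes measured there were in the top 5% of its genes. PDK1, a kinase that keeps pyruvate out of mitochondria and a known hypoxia target, had 7.09, 5.95 and 3.68 CPM in the controls and 9.33, 4.48 and 12.6 CPM in the combination libraries. The neuronal-type glucose transporter gene SLC2A3 had 247, 197 and 194 CPM in controls and 252, 176 and 484 CPM in the combination. Library 3 of the combination stood apart at the high end of this component, at a score of 0.63, while library 2 of the same group was at the low end, at -0.43. The fitted log2 fold change of the combination over control was 0.63 ± 0.36 (SE, n = 3 libraries per group) for PDK1 and 0.48 ± 0.26 for SLC2A3, both with 95% intervals that include 0.

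No gene passed the test between the combination and control: 0 of 15143 genes tested (0%) had an adjusted p under 0.05 in the quasi-likelihood test of edgeR, adjusted by the Benjamini-Hochberg method, and the lowest adjusted p was 0.288. At an unadjusted p under 0.05 there were 382 genes (2.52%), of which 237 (1.57%) were higher with both agents and 145 (0.958%) lower. The 3 combination libraries were all above the 3 controls for 676 genes (4.46%) and all below them for 463 (3.06%). The median log2 fold change over all genes tested was 0.01. Most genes were measured closely enough to limit how much they could differ. The 95% interval of the fold change lay within 2-fold in either direction for 12976 genes (85.7%), and within 1.5-fold for 10360 (68.4%). Among the 12280 genes with an average of at least 1 on the log2 CPM scale, 12120 (98.7%) had an interval within 2-fold. The interval lay wholly outside 1.5-fold for 20 genes. Of the 108 genes whose fitted change exceeded 2-fold, 1 reached that average level, the noncoding RNA gene H19, named here after its value was seen, and the rest were scarce. In DESeq2, a planned second tool, 6 genes passed, 4 higher (MSN, AKAP12, LGALS1 and VIM) and 2 lower (SPRY4 and ID1), with 354 at an unadjusted p under 0.05, and in limma-voom 0 genes passed, with 387 at an unadjusted p under 0.05.

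**Figure D1:**
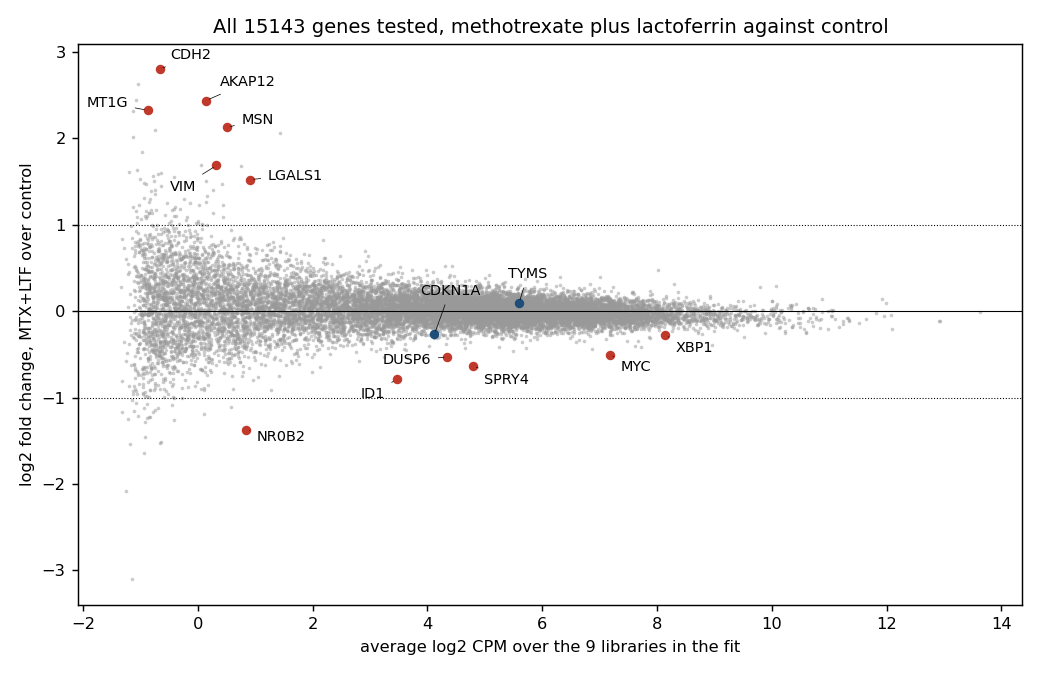
Each grey point is one of the 15143 genes tested, placed by its average log2 CPM over the 9 libraries of the fit (horizontal) and its log2 fold change, MTX+LTF (methotrexate plus lactoferrin) over control (vertical), with dotted lines at a 2-fold change. Named genes in red are among those with the lowest p or the ERK feedback group, and TYMS and CDKN1A are in blue; the genes beyond the dotted lines lie at the scarce, left end, and none passed an adjusted p of 0.05 in edgeR, while DESeq2 called 4 of them (MSN, AKAP12, LGALS1 and VIM).

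Genes of the pathway that methotrexate blocks had overlapping levels in the combination and control. Of the 20 listed genes of the folate cycle, 19 were tested, 0 had an unadjusted p under 0.05 in either direction, and their fitted log2 fold changes ran from -0.17 to 0.40 with a median of -0.01. TYMS encodes thymidylate synthase, which makes the thymidine nucleotide for DNA. It had 50.9, 44.8 and 47.0 CPM in the controls and 51.1, 49.0 and 55.2 CPM in the combination libraries, so that the groups overlapped. For TYMS the log2 fold change was 0.09 ± 0.09 (SE, n = 3 per group), with a 95% interval of -0.11 to 0.30 and an edgeR adjusted p of 0.999. TYMS overlaps an antisense gene, and since how strands were handled is unstated, its level is uncertain to that extent. GART, a trifunctional purine enzyme that uses a folate cofactor, had 113, 103 and 117 CPM in controls and 104, 105 and 124 CPM in the combination. Its groups overlapped as well, and the interval of its log2 fold change was -0.23 to 0.17.

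The other groups related to antifolates also gave no gene at the unadjusted level. For uptake, export and polyglutamation of methotrexate, 13 of 17 genes were tested, 0 had an unadjusted p under 0.05 and the median log2 fold change was -0.06. SLC19A1, the reduced folate carrier through which the drug enters cells, had 69.7, 84.6 and 101 CPM in controls and 75.4, 85.2 and 66.1 CPM in the combination, with an interval of -0.54 to 0.13. FPGS, which adds the glutamate tail that keeps the drug in the cell, had means of 63.6 ± 9.93 CPM in controls and 60.6 ± 9.76 CPM in the combination (SD, n = 3). The 16 genes of purine synthesis and salvage had a median of -0.07, and the 20 tested genes of pyrimidine and deoxynucleotide synthesis had one of -0.06, with 0 genes at an unadjusted p under 0.05 in both. ATIC, a purine enzyme inhibited by methotrexate polyglutamates, had 264 ± 22.8 CPM in controls and 253 ± 6.91 in the combination. RRM2, the regulated subunit of ribonucleotide reductase, had 209 ± 4.19 and 207 ± 13.9 CPM. Among 13 tested genes for adenosine production and its receptors, the median was 0.03 and again 0 had an unadjusted p under 0.05. The groups were apart with the combination higher for 2 of the 13, ADORA2A and ENTPD1, and lower for 0. The shares over all genes were 4.46% and 3.06%. NT5E, the ecto-enzyme that makes extracellular adenosine, had 10.9, 7.0 and 8.44 CPM in controls and 10.5, 6.97 and 12 CPM in the combination, overlapping ranges.

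No damage response gene of the p53 list passed, and none was higher at the unadjusted level. Of 28 listed p53 targets, 26 were tested, 0 had an unadjusted p under 0.05 in the higher direction and 3 in the lower, against 0.958% of all genes in the lower, with a median of -0.06. Those 3 were AEN, ZMAT3 and CDKN1A. The groups were apart with the combination higher for 3 of the 26 and lower for 4, where the shares over all genes were 4.46% and 3.06%. CDKN1A, the p53-induced inhibitor of cyclin-dependent kinases, had 19.2, 20.1 and 15.4 CPM in the controls and 16.9, 14.6 and 14.7 CPM in the combination. The lowest control and the highest combination library overlapped, the log2 fold change was -0.27 ± 0.13 and the edgeR adjusted p 0.999. AEN, a nuclease gene induced by p53, had 52.6, 54.6 and 60.6 CPM in controls and 46.3, 48.0 and 39.2 CPM in the combination, with no overlap, and a log2 fold change of -0.36 ± 0.12. For ZMAT3, an RNA-binding p53 target, the values were 11.9, 11.2 and 10.7 CPM in controls against 8.10, 8.20 and 10.6 CPM in the combination, also without overlap. MDM2, the ubiquitin ligase that degrades p53, had means of 56.2 ± 1.40 and 55.5 ± 9.23 CPM, with library 3 of the combination the highest of the 6.

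Proliferation and repair genes gave narrow intervals, with 1 repair gene at an unadjusted p under 0.05. All 33 genes of the G1/S and replication list were tested, with a median of -0.04, and all 28 of the G2/M and mitosis list, with a median of 0.03. In both lists 0 genes had an unadjusted p under 0.05, and every interval lay within 2-fold. MKI67, the proliferation marker Ki-67, had 298, 321 and 243 CPM in controls and 257, 353 and 422 CPM in the combination, and the SD of 82.8 CPM in the combination was wider than the distance between the group means of 287 and 344 CPM. The fitted log2 fold change of MKI67 was 0.22 ± 0.14, with an interval of -0.08 to 0.53. PCNA, the sliding clamp of DNA polymerase, had 231 ± 7.77 CPM in controls and 236 ± 3.02 in the combination, for an interval of -0.18 to 0.19. Of 29 DNA repair genes, 1 had an unadjusted p under 0.05, against 2.52% of all genes. That gene, LIG4, encodes the ligase of non-homologous end joining and had a log2 fold change of 0.42 ± 0.18. Among 26 tested apoptosis genes 0 had an unadjusted p under 0.05, and the median was -0.05.

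**Figure D2:**
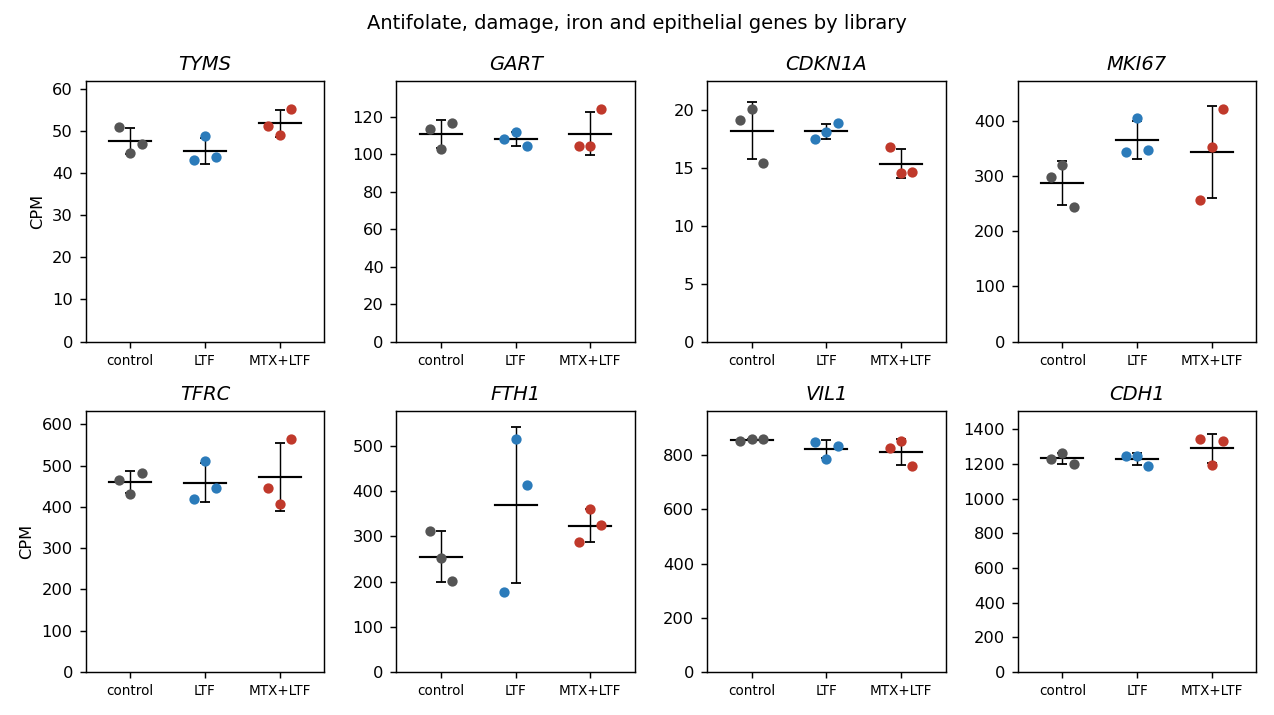
Levels in CPM (vertical, from 0) of TYMS, GART, CDKN1A, MKI67, TFRC, FTH1, VIL1 and CDH1 in the 3 control, 3 LTF (lactoferrin) and 3 MTX+LTF libraries; points are libraries, long bars the means and capped lines the SD. The ranges of control and MTX+LTF overlap for each of these genes except VIL1, whose controls lie between 854 and 859 CPM, and library 3 of MTX+LTF is the highest of its group for TYMS, GART, MKI67 and TFRC.

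Iron genes were listed because lactoferrin is an iron carrier, and 1 of them met the unadjusted threshold. Of 27 listed, 22 were tested, 0 had an unadjusted p under 0.05 in the higher direction and 1 in the lower, against 1.57% and 0.958% of all genes. That gene was ID1, counted there as a target of the BMP signal that iron engages and described below. TFRC, the transferrin receptor whose mRNA is stabilised when iron is short, had 465, 431 and 483 CPM in the controls and 446, 406 and 564 CPM in the combination. TFRC had a log2 fold change of 0.00 ± 0.11 with an interval of -0.24 to 0.24. FTH1, the ferritin heavy chain, had 313, 252 and 201 CPM in controls and 287, 360.1 and 324 CPM in the combination, and its spread was wide in the lactoferrin group too, at 178, 515 and 413 CPM. FTH1 has many processed copies in the genome, so its count is uncertain. SLC40A1, the iron exporter ferroportin, had 199 ± 18.7 and 189 ± 15.7 CPM. LTF itself, the gene of endogenous lactoferrin, was scarce in both groups, at 0.0503, 0.713 and 0.471 CPM in controls and 0.660, 0.407 and 0.641 CPM in the combination, and the interval of its log2 fold change was -0.86 to 1.65.

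Of 13 candidate receptors and binding partners of lactoferrin, 11 were tested, 0 had an unadjusted p under 0.05 and the median was -0.09. ITLN1, known as the intestinal lactoferrin receptor, was near the limit of detection at 1.06, 0.671 and 0.600 CPM in controls and 0.572, 0.814 and 0.739 CPM in the combination. LRP1, an endocytic receptor that binds lactoferrin, had 684 ± 109.9 CPM in controls and 652 ± 81.9 in the combination. LRP2, or megalin, had 139, 139 and 189.6 CPM in controls against 143, 119.7 and 136 CPM in the combination, overlapping, and an interval of -0.58 to 0.05.

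In the metallothionein and zinc group, 12 of 15 genes were tested, 2 had an unadjusted p under 0.05 in the higher direction and 2 in the lower, against 1.57% and 0.958% of all genes. Metallothioneins are small proteins that bind zinc and copper. MT1G had 0.101, 0.126 and 0.214 CPM in controls and 0.660, 0.916 and 0.789 CPM in the combination, without overlap, but the 3 controls held between 2 and 5 counts. Its log2 fold change was 2.32 ± 0.47, with an interval of 1.32 to 3.33 and an edgeR adjusted p of 0.558. MT1A had 0.503, 0.461 and 0.857 CPM in controls against 0.969, 1.32 and 1.53 CPM in the combination. The more abundant MT1F had the opposite order, at 11.3, 12.6 and 11.5 CPM in controls and 9.91, 9.06 and 9.17 CPM in the combination. MT2A, the major form, overlapped at 3.52, 3.90 and 6.13 CPM in controls against 5.55, 5.14 and 5.67 CPM in the combination. The members of this family are close in sequence, so reads could be split between them. The summed level of the list was 483 to 540 CPM in controls and 470 to 520 in the combination. That sum also holds zinc transporters such as SLC39A5, with 4872, 6801 and 6506 counts in controls against 224, 301 and 268 for MT1F. It therefore does not give the level of the metallothionein family.

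Rankings by p here and below pass over uncharacterised clones, pseudogenes, Y-linked genes and XIST. Among genes with an average of at least 1 on the log2 CPM scale, the lowest p belonged to SPRY4, ID1, MYC and SPRY2. For all 4 the levels with both agents were below control in every library. These genes and those named with them below were picked out after their values were seen, and none passed the adjusted threshold in edgeR's fit of the 9 libraries, while DESeq2 called SPRY4 and ID1. The list of immediate early genes and ERK feedback genes had 35 of 37 tested, 0 with an unadjusted p under 0.05 in the higher direction and 6 in the lower, where 0.958% of all genes had such a p in the lower direction. Of the 35, 12 fitted changes were above 0 and 23 below, the median was -0.12 against 0.01 over all genes, and the groups were apart with the combination lower for 9 genes and higher for 2, where the shares over all genes were 3.06% and 4.46%. For lactoferrin alone over the same controls the median of the list was -0.16. The 6 were SPRY4, MYC, SPRY2, DUSP6, DUSP2 and AREG. This list, like the others, was written with earlier results of these data known. Its counts beside the shares over all genes are therefore a description and not a test.

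SPRY4 (ENSG00000187678, chromosome 5, 141689992 to 141706020 of hg19), a Sprouty inhibitor of growth factor signalling, had 32.5, 37.1 and 38.3 CPM in the controls, 25.1, 25.0 and 20.9 CPM in the combination and 23.6, 22.4 and 23.2 CPM with lactoferrin alone. Every library of both exposed groups was below every control. The log2 fold change of the combination over control was -0.63 ± 0.12 (SE, n = 3 per group), with an interval of -0.89 to -0.38 and an edgeR adjusted p of 0.351. That of lactoferrin alone over the same controls was -0.68. SPRY2, a close relative, had 28.7, 30.9 and 27.7 CPM in controls, 21.0, 20.9 and 24.6 CPM in the combination and 22, 23.8 and 24.8 CPM with lactoferrin. The values did not overlap with control for SPRY2 either, and its log2 fold change was -0.42 ± 0.10. SPRY1, the third member tested, overlapped at 12.3, 13.2 and 11.4 CPM in controls against 9.86, 8.70 and 14.6 CPM in the combination.

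DUSP6 (ENSG00000139318, chromosome 12, 89741009 to 89747048), the cytoplasmic phosphatase that inactivates ERK, had 26.9, 26.9 and 22.6 CPM in controls, 17.7, 14.4 and 21.9 CPM in the combination and 14.3, 19.5 and 17.7 CPM with lactoferrin. Library 3 of the combination came close to the lowest control, and the other 2 lay well below. The log2 fold change was -0.53 ± 0.15, with an interval of -0.85 to -0.21. DUSP2, a nuclear phosphatase of the same family, had 12.4, 15.3 and 17.0 CPM in controls and 10.4, 11.4 and 9.96 CPM in the combination. DUSP5 had 14.9, 14 and 16.2 CPM in controls against 13.1, 11.3 and 12.2 CPM in the combination, without overlap but with an interval of -0.69 to 0.03. Other members did not share this order. The 2 members of the list wholly above control were ATF3, described below, and EREG. Their log2 fold changes were 0.49 and 0.24, neither at an unadjusted p under 0.05. DUSP4 overlapped at 2.51, 3.35 and 2.40 CPM in controls against 2.99, 1.99 and 3.89 CPM in the combination, ETV4, an ETS factor and ERK target, at 133, 147 and 144 CPM in controls against 137, 149 and 121 CPM in the combination, and the immediate early gene JUN at 13.3, 14.3 and 13.7 CPM in controls against 14.9, 13.4 and 14.6 CPM in the combination.

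MYC (ENSG00000136997, chromosome 8, 128747680 to 128753674), the growth-promoting transcription factor, had 152, 178 and 193 CPM in controls, 126, 128 and 122 CPM in the combination and 128, 120.3 and 148 CPM with lactoferrin. The 3 combination libraries lay close together and below every control. Its log2 fold change was -0.51 ± 0.12, with an interval of -0.75 to -0.26 and an edgeR adjusted p of 0.840. The list of MYC targets and ribosome biogenesis also holds MYC itself. All 27 genes were tested, and 0 besides MYC had an unadjusted p under 0.05. Of the fitted changes, 4 were above 0 and 23 below, with a median of -0.11 against 0.01 over all genes. With the surrogate variable described below in the fit, the list median was -0.05. Other lists leaned as far, with 27 of 30 nuclear oxidative phosphorylation genes below 0 and 21 of 29 DNA repair genes above 0. ODC1, the polyamine enzyme and a classical MYC target, had a log2 fold change of -0.15 ± 0.09.

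ID1 (ENSG00000125968, chromosome 20, 30193086 to 30194318), an inhibitor of basic helix-loop-helix factors and a target of BMP signalling, had 14.1, 13.6 and 16.0 CPM in controls, 7.88, 7.53 and 10.5 CPM in the combination and 7.35, 11.6 and 9.14 CPM with lactoferrin. No library of either exposed group reached the lowest control. The log2 fold change was -0.79 ± 0.17, with an interval of -1.15 to -0.43 and an edgeR adjusted p of 0.674. ID2 and ID3, its relatives, had log2 fold changes of 0.05 ± 0.15 and -0.03 ± 0.34. The receptor tyrosine kinase gene EPHA2 had 49.5, 50.9 and 63.8 CPM in controls and 41.0, 44.5 and 36.7 CPM in the combination, and its log2 fold change was -0.46 ± 0.15. AMOTL2, a YAP target that binds tight junctions, was an abundant gene with the opposite order, at 50.2, 53.6 and 47.4 CPM in controls and 64.2, 61.2 and 71.8 CPM in the combination, for a log2 fold change of 0.35 ± 0.10.

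Among these genes library 3 of the combination, which stood apart on the within-group component, was the highest of its group for SPRY2, DUSP6 and ID1 and the lowest for SPRY4, DUSP2 and MYC. With 1 surrogate variable estimated from the counts as a term in the fit, an alternative chosen after seeing the data, 6 of the 15143 genes (0.0396%) passed. They were SPRY4, ID1, DUSP6 and MYC, all lower with both agents, and AKAP12 and MSN, both higher. In that fit the edgeR adjusted p was 0.0237 for SPRY4 at a log2 fold change of -0.56, 0.0251 for ID1 at -0.89, 0.0251 for DUSP6 at -0.64 and 0.0484 for MYC at -0.44. The surrogate variable was -0.70 in library 3 of the combination and -0.44 in library 2 of lactoferrin, the 2 libraries with the highest component scores.

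**Figure D3:**
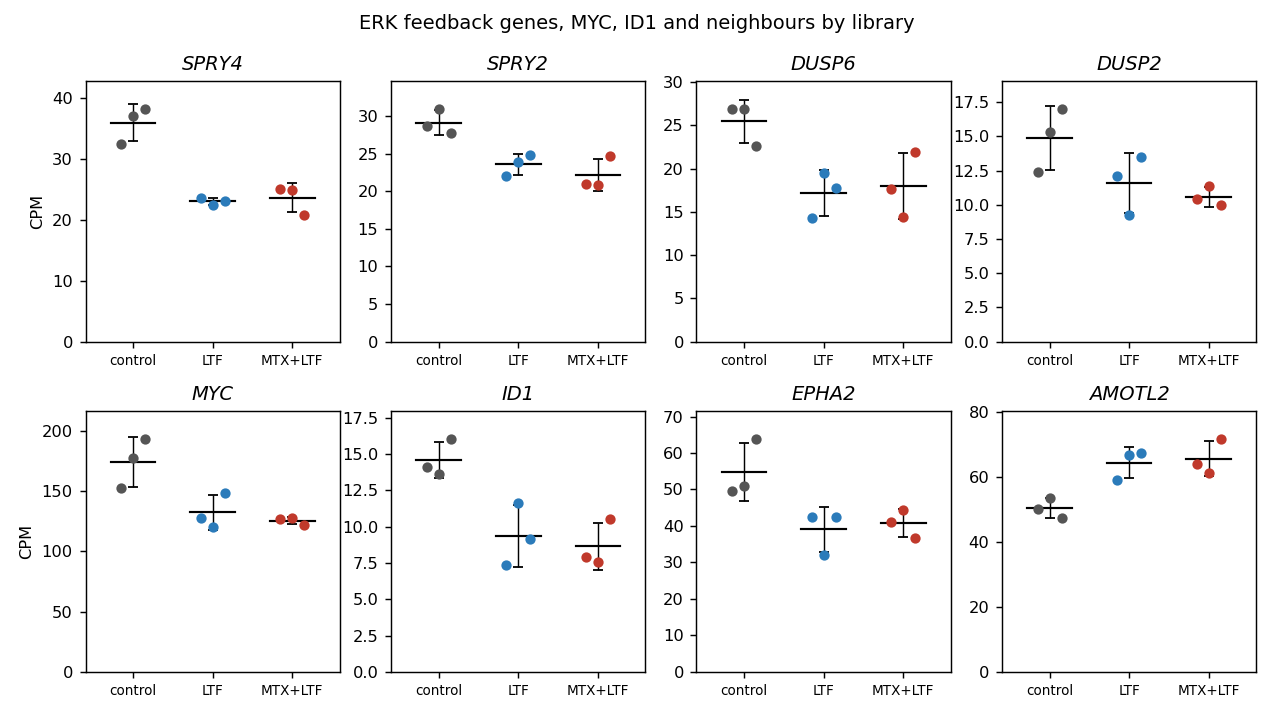
Levels in CPM (vertical, from 0) of SPRY4, SPRY2, DUSP6, DUSP2, MYC, ID1, EPHA2 and AMOTL2 in the 3 control, 3 LTF (lactoferrin) and 3 MTX+LTF libraries; points are libraries, long bars the means and capped lines the SD. For SPRY4 the controls lie at 32.5, 37.1 and 38.3 CPM and all 6 exposed libraries lower, and in each panel the LTF and MTX+LTF points overlap.

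Set directly against lactoferrin alone, the combination gave 0 called genes of 15143 (0%) in edgeR, with 395 (2.61%) at an unadjusted p under 0.05 and a lowest adjusted p of 0.190. DESeq2 called 3 genes here, VIM, LGALS1 and MSN, all higher in the combination. This asks what methotrexate added to lactoferrin. The comparison shares its 3 combination libraries with the one above, and lactoferrin against control shares the controls, so likeness between the 3 sets of values is in part built in. For SPRY4 the combination differed from lactoferrin by a log2 fold change of 0.04 ± 0.12 (interval -0.22 to 0.30), for ID1 by -0.11 ± 0.17 (interval -0.48 to 0.26) and for MYC by -0.07 ± 0.12 (interval -0.32 to 0.18). For DUSP6 the difference was 0.07 ± 0.15, with an interval of -0.25 to 0.40. For these 4 genes the interval excludes a 1.5-fold difference between the exposures in either direction. AREG, which encodes the EGF receptor ligand amphiregulin, was ordered differently. It had 7.53, 7.33 and 7.59 CPM in the combination, 9.80, 11.5 and 13.7 CPM with lactoferrin and 9.55, 9.10 and 8.74 CPM in controls, and its combination to lactoferrin log2 fold change was -0.63 ± 0.14, with an edgeR adjusted p of 1.000. TYMS differed by 0.20 ± 0.10 and CDKN1A by -0.23 ± 0.13 (interval -0.50 to 0.04).

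The genes with the lowest p of all were scarce genes that were higher with both agents. Of the 40 genes with the lowest p, taken after the values were seen and with clones, pseudogenes, Y-linked genes and XIST passed over, 24 had an average under 1 on the log2 CPM scale. A gene this scarce can pass the filter on low counts through the group where it is high, so the direction of these 24 is in part set by the filter. VIM (ENSG00000026025, chromosome 10, 17270258 to 17279592), the intermediate filament of mesenchymal cells, had 0.754, 0.671 and 0.557 CPM in controls, 1.94, 2.09 and 2.51 CPM in the combination and 0.700, 0.637 and 0.534 CPM with lactoferrin. The 3 combination libraries were apart from all others. Its log2 fold change over control was 1.69 ± 0.28, with an interval of 1.08 to 2.30 and an edgeR adjusted p of 0.288, and over lactoferrin it was 1.79 ± 0.29. MSN (ENSG00000147065, chromosome X, 64887537 to 64961791), which encodes moesin, a linker of actin to the membrane, had 1.06, 0.545 and 0.300 CPM in controls and 2.69, 2.75 and 2.91 CPM in the combination. MSN had a log2 fold change of 2.13 ± 0.36, with an interval of 1.35 to 2.90. LGALS1 (ENSG00000100097, chromosome 22, 38071615 to 38075813), the galectin-1 gene, had 1.51, 0.922 and 0.90 CPM in controls against 2.55, 3.97 and 3.20 CPM in the combination, for a log2 fold change of 1.52 ± 0.27.

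AKAP12 (ENSG00000131016, chromosome 6, 151561134 to 151679692), a scaffold that anchors protein kinase A, had 0.352, 0.168 and 0.514 CPM in controls, 2.82, 1.58 and 1.33 CPM in the combination and 0.750, 0.902 and 0.588 CPM with lactoferrin, so that the lactoferrin libraries lay between the other groups. Its log2 fold change over control was 2.44 ± 0.44. FSTL1, a secreted glycoprotein of mesenchymal cells, had 0.201, 0.293 and 0.514 CPM in controls against 1.19, 1.17 and 0.838 CPM in the combination. PXDN, an extracellular matrix peroxidase, had 0.251, 0.671 and 1.37 CPM in controls against 2.99, 2.49 and 2.22 CPM in the combination, and CDH2, or N-cadherin, 0.101, 0.0419 and 0.343 CPM in controls against 1.41, 1.58 and 0.592 CPM in the combination. The floor of 3 counts was 0.126 to 0.151 CPM in the control libraries, so the CDH2 controls 1 and 2 were below it. H19 had 1.51, 0.838 and 1.24 CPM in controls and 7.75, 6.92 and 0.296 CPM in the combination. Libraries 1 and 2 of the combination were high for H19 and library 3 was the lowest of the 6. Without combination library 3, H19 was the 1 gene called, with a log2 fold change of 2.62 and an edgeR adjusted p of 0.000154.

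The same genes were abundant in the libraries of methotrexate alone, which took no part in the fit. There VIM had 522, 613 and 651 CPM, MSN 186, 185 and 189.5 CPM, LGALS1 732, 893 and 821 CPM and FSTL1 482, 434 and 464 CPM. The level in the combination was 0.366% of that with methotrexate alone for VIM, 1.49% for MSN, 0.398% for LGALS1, 3.22% for AKAP12, 0.232% for FSTL1, 0.687% for PXDN and 4.14% for CDH2. Many genes that were abundant there had no such order in the combination. Of 52 genes with at least 100 CPM in methotrexate alone and under 1 CPM with lactoferrin, a set chosen after seeing the data, 30 had a higher mean in the combination than in control, and their median level was 0.233 CPM in the combination and 0.231 in control, against 249 with methotrexate alone. Their summed level was 23.7, 13.2 and 13.8 CPM in the controls, 23.4, 24.2 and 22.1 in the combination and 14.2, 17.5 and 14 with lactoferrin. Control 1 was thus as high as the combination libraries, but in part through other genes. FABP4, CD36 and LPL had 37, 36 and 29 counts in control 1 and at most 5 in any combination library. VIM had 0.754 CPM in control 1 and 1.94 to 2.51 CPM in the combination. Of these 52 genes, 17 passed the filter on low counts, which a scarce gene can pass through the combination libraries alone, so no count of directions is given for them.

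The summed levels of fibroblast and adipocyte markers overlapped between the combination and control. Members that the controls also express carried most of these sums. In controls COL1A1 had 49.0 to 65.4 CPM, PDGFRB 40.5 to 44.9 and RBP4 428 to 502. A small change in the scarce members would therefore not show in the sums. The 18 fibroblast and mesenchymal markers summed to 130 to 139 CPM in controls, 138 to 142 in the combination and 13376 to 14768 with methotrexate alone. VIM was the 1 gene of the 10 tested with an unadjusted p under 0.05, against 2.52% of all genes. Of the 18, 3 (DPT, MFAP5 and COL15A1) were at 0 in all 3 combination libraries, and also in every control and lactoferrin library. The collagen gene COL3A1, at 3086 to 3401 CPM with methotrexate alone, had 0.84 to 1.63 CPM in the combination and 1.33 to 1.71 in control. The 18 adipocyte markers summed to 742 to 794 CPM in controls and 729 to 772 in the combination, with 0 of 10 tested at an unadjusted p under 0.05. The adipocyte hormone gene ADIPOQ, at 1279 to 1407 CPM with methotrexate alone, was at most 0.04 CPM in the combination. The endothelial markers (3 tested of 12 found), the blood and immune markers (5 of 17) and the secretory intestinal markers (9 of 18) had 0 genes at an unadjusted p under 0.05. What part the RNA seen with methotrexate alone has in the higher VIM, MSN and LGALS1 of the combination was not tested.

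**Figure D4:**
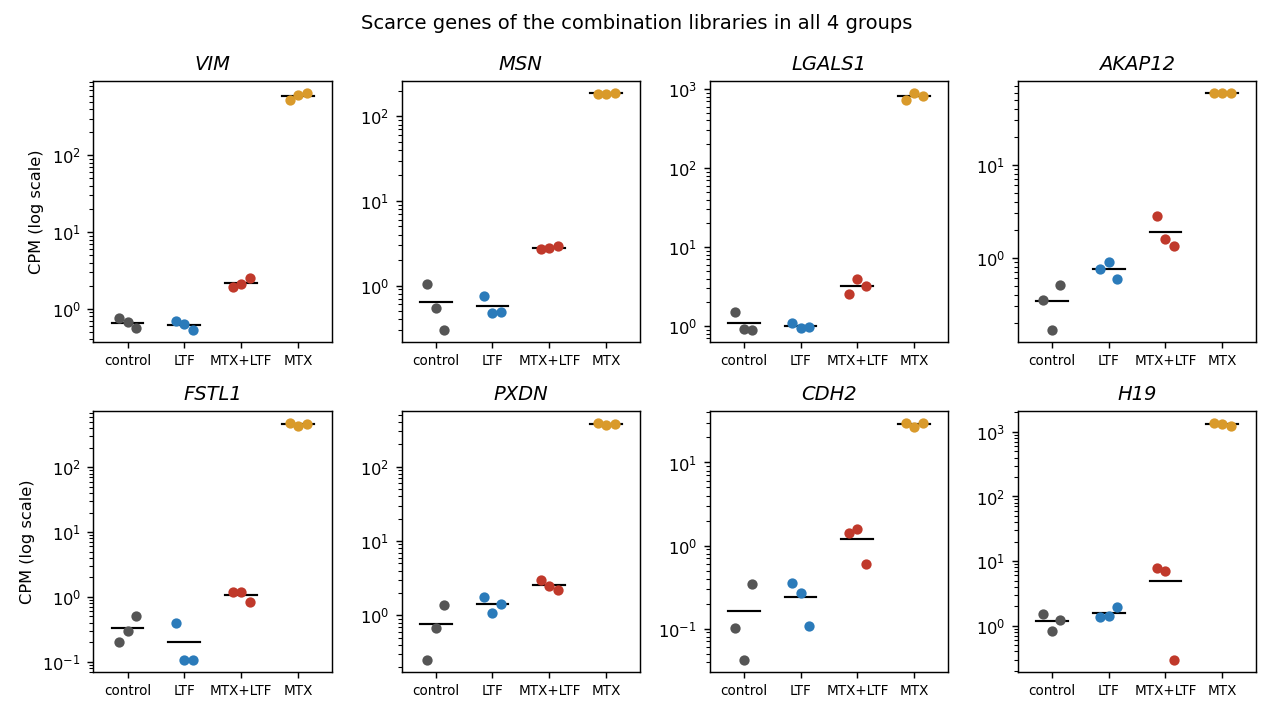
Levels in CPM (vertical, log scale, a separate axis for each gene) of VIM, MSN, LGALS1, AKAP12, FSTL1, PXDN, CDH2 and H19 in the 12 libraries, by group: control, LTF (lactoferrin), MTX+LTF and MTX (methotrexate alone, not in the fit). Points are libraries and bars the means; the MTX+LTF points lie above the controls except for H19 library 3, and far below MTX, as for VIM at 2.18 against 595 CPM.

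Among the stress lists, 1 gene met the unadjusted threshold. The integrated stress response (32 tested), NRF2 targets (23), heat shock (16), autophagy and lysosome (20), NF-kB and inflammatory genes (21), the interferon response (22) and hypoxia and glycolysis (23) each had 0 genes with an unadjusted p under 0.05, and their medians lay between -0.07 and 0.01. HMOX1, the heme oxygenase induced by oxidative stress, had 27.8, 25.7 and 30.1 CPM in controls and 27.5, 27.0 and 27.7 CPM in the combination, with an interval of -0.28 to 0.17. ATF3, a stress-induced transcription factor, had 3.32, 3.02 and 2.27 CPM in controls and 3.57, 3.46 and 5.32 CPM in the combination. Its groups did not overlap, and its interval was -0.01 to 0.99. Of 20 genes of the unfolded protein response, 1 had an unadjusted p under 0.05, against 2.52% of all genes. This was XBP1, the transcription factor that enlarges the endoplasmic reticulum, with 314, 306 and 304 CPM in controls, 260.2, 259 and 257 CPM in the combination and 275, 263 and 288 CPM with lactoferrin. The spread of XBP1 was small within both groups, and its log2 fold change was -0.28 ± 0.08, with an edgeR adjusted p of 0.999. The chaperone gene HSPA5 beside it had 989 ± 42.5 and 969.7 ± 22 CPM.

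Mitochondrial genes were measured in 2 lists. Of 30 nuclear genes of oxidative phosphorylation, 27 had a fitted change below 0 and 3 above, the median was -0.10, and 2 (COX5B and COX7A2) had an unadjusted p under 0.05 in the lower direction, against 0.958% of all genes. The summed level of this list was lowest in library 3 of the combination, and COX8A, one of the genes at the low end of the within-group component, had 47.0, 35.6 and 32.6 CPM in controls and 38.8, 56.2 and 15 CPM in the combination. The part of that component in the list was not tested as a cause, and with the surrogate variable in the fit its median was -0.08. The 13 mitochondrially encoded genes made up 2.00% to 3.34% of counts in controls and 2.56% to 2.73% in the combination, with a median of 0.07 and 0 genes at an unadjusted p under 0.05. Of 20 histone genes tested, 1 had such a p in the higher direction and 2 in the lower, against 1.57% and 0.958% of all genes, with a median of -0.05.

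Epithelial genes were measured with narrow intervals. VIL1, the villin of the brush border, had 854, 858 and 859 CPM in controls and 828, 852 and 758 CPM in the combination. The groups were apart by a narrow margin, with library 3 the lowest, and the interval of the log2 fold change was -0.30 to 0.09. CDH1, or E-cadherin, had 1231, 1265 and 1200.0 CPM in controls and 1343, 1192 and 1333 CPM in the combination, with an interval of -0.14 to 0.21. Brush border enzymes (23 tested, median 0.03), tight junction and adhesion genes (23, median 0.00), lipid handling (23, median -0.03) and cholesterol synthesis and uptake (25, median -0.02) had 0 genes with an unadjusted p under 0.05. The intestinal transcription factors (18 tested, median -0.02) and the Wnt targets and stem cell genes (19, median -0.01) each had 1, in the lower direction, ISX and ZNRF3, against 0.958% of all genes. LGR5, the receptor that marks crypt stem cells, had 24.1, 21.7 and 24.9 CPM in controls against 22, 23.1 and 28.1 CPM in the combination. Of 19 genes that respond to TGF-beta, BMP or YAP, 3 had an unadjusted p under 0.05 in the higher direction (AMOTL2 and LATS2 among them) and 2 in the lower (ID1 and ANKRD1), against 1.57% and 0.958% of all genes, so that the list held both orders.

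**Figure D5:**
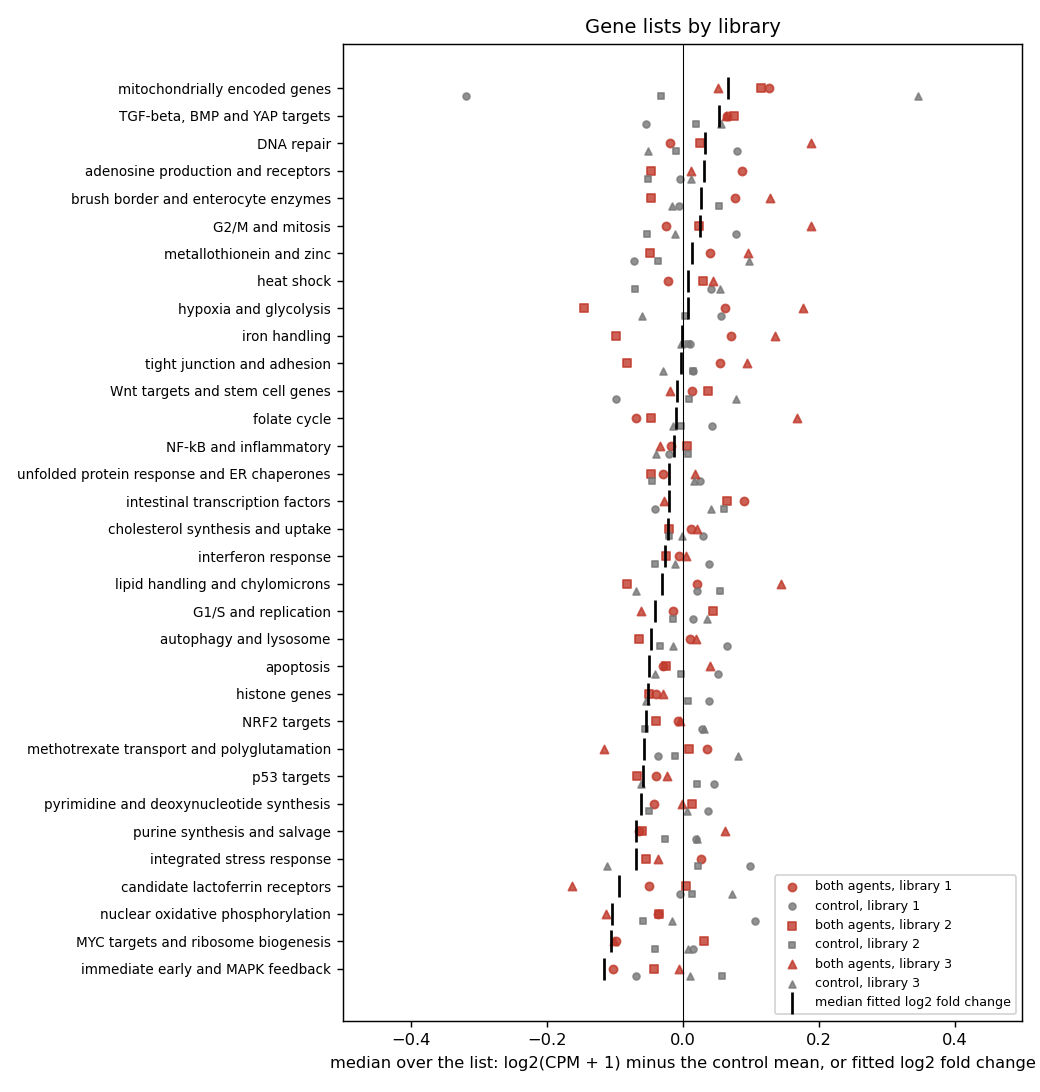
Median over each gene list, those of cell type and identity markers left out, of log2(CPM + 1) minus the mean of the 3 controls, for each MTX+LTF (red) and control (grey) library, with the median fitted log2 fold change as a black tick (horizontal, log2 scale); circles, squares and triangles are libraries 1, 2 and 3. The ticks run from -0.12 for immediate early and MAPK feedback genes to 0.07 for mitochondrially encoded genes, and for most lists the libraries of both groups overlap.

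A few further genes among the 40 with the lowest p belong to no list above. NR0B2, the bile acid induced repressor SHP, had 2.31, 2.26 and 2.27 CPM in controls, 0.881, 1.07 and 0.739 CPM in the combination and 1.45, 1.70 and 2.51 CPM with lactoferrin. The combination libraries were all below the controls, those of lactoferrin overlapped them, the log2 fold change of the combination was -1.37 ± 0.28 and the edgeR adjusted p 0.589. IGFBP2, a binding protein of insulin-like growth factors, had 2.51, 3.56 and 3.13 CPM in controls and 5.02, 6.16 and 5.52 CPM in the combination, for a log2 fold change of 0.82 ± 0.22. HSF4, a heat shock factor, had 1.71, 1.97 and 2.36 CPM in controls against 3.17, 4.58 and 3.40 CPM in the combination. SHH, the hedgehog ligand, had 12, 12.3 and 11.5 CPM in controls and 9.25, 8.76 and 9.56 CPM in the combination, and lactoferrin libraries at 9.05, 10.7 and 9.03 CPM lay near the combination. EZH1, a histone methyltransferase of the Polycomb group, had 6.03, 8.34 and 6.60 CPM in controls against 9.07, 9.88 and 11.7 CPM in the combination, for a log2 fold change of 0.51 ± 0.15. All of these had an edgeR adjusted p of at least 0.589.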

How the data were processed

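Bulk RNA-seq of Caco-2 spheroids gave one table of counts per gene, deposited by the submitters, for 12 libraries in 4 groups of 3, grouped by their labels. Per the submitters' processing notes, CASAVA, STAR and DESeq2 were used with hg19. No source used here gives the counting program, the annotation, the strand setting or whether reads or pairs were counted. The table has 48162 genes, of which 15233 had no count anywhere. The deposited counts were tested with edgeR 4.0.16 in R 4.3.3: filterByExpr (minimum count 10, minimum total 15) left 15143 genes, scaling was by trimmed mean of M values, and a quasi-likelihood fit on 9 libraries (control, lactoferrin, combination) gave log2 fold changes and Benjamini-Hochberg adjusted p over all genes, called under 0.05. SE is the size of the fold change divided by the square root of F, and intervals are 95%. CPM are unscaled by these factors, which ran from 0.965 to 1.04. The coefficient of biological variation was 12.2%, on 6 residual degrees of freedom. Differences below the spread of scarce genes could not be seen at 18714054 to 23859094 counts per library. No pair of replicates agreed within sampling noise. Alternatives used DESeq2 1.42.0, limma 3.58.1 and sva 3.50.0, and the fit was tested on simulated data. The rule for named genes gave, among others, TYMS, TFRC, FTH1, LTF, CDKN1A, MKI67, VIL1 and CDH1, since its other parts needed called genes; all other genes were named after their values were seen, and some items are not reported here. The comparison and the 39 gene lists were chosen with earlier results of these data known.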

Additional observations from a re-analysis of the deposited data

Results flagged for a closer look

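The 20 genes with the lowest p in the combination against control were examined, with clones, pseudogenes, Y-linked genes and XIST passed over. Of these, VIM, MSN, LGALS1, AKAP12 and PXDN were scarce in that comparison and higher with both agents. Each was more than 100 times the highest control library in every library of methotrexate alone, which took no part in the comparison. Mean levels in those libraries were 595 CPM for VIM, 187 CPM for MSN, 815 CPM for LGALS1, 59.2 CPM for AKAP12 and 374 CPM for PXDN. In the combination the same genes had means of 2.18, 2.78, 3.24, 1.91 and 2.57 CPM, in that order, and in control 0.661, 0.633, 1.11, 0.345 and 0.764 CPM. What part one has in the other was not tested.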

How the results depend on the processing

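Of 22 alternative settings, those with 2 groups only, limma-voom, DESeq2's size factors in edgeR, epithelial scaling, a minimum of 1 CPM and the submitters' cut-offs left 0 genes called for the combination against control, for the combination against lactoferrin and for lactoferrin against control. The submitters' cut-offs (adjusted p under 0.01 and 2-fold) were laid on the main fit itself. Their 0 was therefore fixed in advance, and their fold changes and list medians repeat those of the main fit. Counts of called genes differed under the following, given as the combination against control (higher and lower), the combination against lactoferrin, and lactoferrin against control. With all 12 libraries in the fit they were 5 (5 and 0), 3 and 0. With DESeq2 they were 6 (4 and 2), 3 and 1. Without a filter on low counts they were 15 (11 and 4), 9 and 15. Of the alternatives added after seeing the data, 1 surrogate variable gave 6 (2 and 4), 0 and 2, DESeq2 on all 12 libraries 15 (13 and 2), 7 and 1, and leaving out control 1, lactoferrin 2 and combination 3 together 5 (2 and 3), 2 and 1. The cause of these differences was not tested. Leaving out 1 library at a time gave 0 to 1 genes for the combination against control (0 to 1 higher, 0 lower), 0 to 1 against lactoferrin and 0 for lactoferrin against control; the 1 came without combination 3. Genes at an unadjusted p under 0.05 ranged over the settings from 283 to 976, 265 to 1004 and 338 to 1425. Over 47 named genes, no called fold change changed sign, and 42 of 1015 refits brought a gene past the threshold; over 39 list medians, 86 of 858 refits moved by more than 1 SD of the 3 combination libraries. Same-numbered control and combination libraries had deviations correlated at -0.28, 0.05 and -0.45, and 2 of 9 libraries correlated best with their own number, so the numbers were not taken to pair samples; a fit with the replicate number as a block gave 0, 0 and 0 calls. Depth limited genes under about 1 CPM, where 3 counts were 0.126 to 0.160 CPM.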
